A study of Mus musculus with 39 samples.

Results

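The chemokine and chemoattractant receptors described here are 8 genes, taken by name and matched by symbol among the 43430 genes of the count table: Ccr1, Ccr2, Cx3cr1, Cxcr4, Ccrl2, C5ar1, Fpr1 and Fpr2. All 8 matched a single Ensembl gene, and all 8 passed the filter on low counts among the 12171 genes tested in macrophages, the 12170 tested in monocytes and the 13587 tested over both. The choice used no measured value of a single comparison, although it was made with earlier results of these data known.

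The receptors were measured by bulk RNA-seq in 39 libraries from sorted lung cells of C57BL/6J mice. Lung monocytes, labelled naive, formed 4 groups of 5 libraries: young and old mice given saline, and young and old mice given ISRIB. The design text instead describes monocytes and macrophages together as collected after bleomycin, so whether the monocyte donors had bleomycin is uncertain. Siglec F-low alveolar macrophages, which the design text calls monocyte-derived, came from bleomycin-treated mice of the same 4 kinds, with 5 libraries each except young mice given ISRIB, which had 4. Young mice are labelled 8 to 12 weeks old on the samples but 3 to 5 months old in the series' design text, and old mice more than 18 months and 18 to 24 months. Bleomycin is a drug that injures the lung and leaves fibrosis, and ISRIB is a small molecule that blunts the integrated stress response by acting on the translation factor eIF2B. ISRIB or vehicle was injected daily from day 7 and cells were collected on day 21 after bleomycin, per the series text. No library labelled as naive macrophages or as monocytes after bleomycin was analysed here, so if the naive label holds, cell type and bleomycin cannot be told apart. The labels do not say that each library came from its own animal, so the p-values measure the spread between these libraries, which may in part be technical. In such bulk libraries, fewer cells that carry a receptor and less receptor RNA per cell cannot be told apart.

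All 8 proteins are receptors with 7 membrane passes of the rhodopsin-like family, and most signal through Gi proteins to steer leukocytes along gradients. Ccr2 binds Ccl2 and related chemokines and drives the exit of classical monocytes from bone marrow, and Cx3cr1 binds Cx3cl1 and marks nonclassical monocytes and many tissue macrophages. Ccr1 binds Ccl3, Ccl5 and Ccl6 among others, and Cxcr4 binds Cxcl12 and retains cells in the marrow and in vessels. Ccrl2 is an atypical receptor that binds the chemoattractant chemerin without classical signalling. C5ar1 is the receptor of complement fragment C5a, and Fpr1 and Fpr2 detect formylated peptides from bacteria and mitochondria.

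Library totals ranged from 4595331 to 16056708 counts with a median of 8628240, and every receptor had at least 141 counts in every library except Fpr1, which had as few as 11 in monocytes. Identity markers followed the labels: Ly6c2, a classical monocyte marker, read 278 to 698 CPM (a gene's count scaled by its library's total) in monocytes and 0.193 to 7.01 CPM in macrophages. Siglecf, the gene of the sorting marker Siglec F, read 0 to 1.57 CPM in monocytes and 46.8 to 156 CPM in macrophages. No pair of libraries within a group agreed within sampling noise (76 pairs, chi-square per degree of freedom of 7.26 to 57.7).

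The repertoire differed between the cell types, as the length-scaled levels in TPM (counts per exon length, scaled to the same total in every library) showed. The 8 receptors summed to 2419 ± 341 TPM (SD, n = 5) in young saline monocytes and to 1433 ± 164 TPM (SD, n = 5) in young saline macrophages. In monocytes Ccr2 held the largest mean share of that sum, from 34.2% in young saline to 48.2% in old saline mice, followed by Cxcr4 and Cx3cr1. In macrophages of young saline mice C5ar1 averaged 268 TPM, Fpr1 253 TPM, Ccr1 250 TPM and Cxcr4 206 TPM, with SDs of 17.1 to 55.7 TPM (n = 5), and Ccr2 averaged 139 ± 33.9 TPM. In old ISRIB macrophages Fpr1 stood highest at 400 ± 136 TPM (SD, n = 5) and Ccr2 lowest at 40.8 ± 16.1 TPM (SD, n = 5). Fpr1 therefore held 17.8% to 23.7% of the macrophage sum by group and 0.353% to 0.771% of the monocyte sum.

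**Figure D1:**
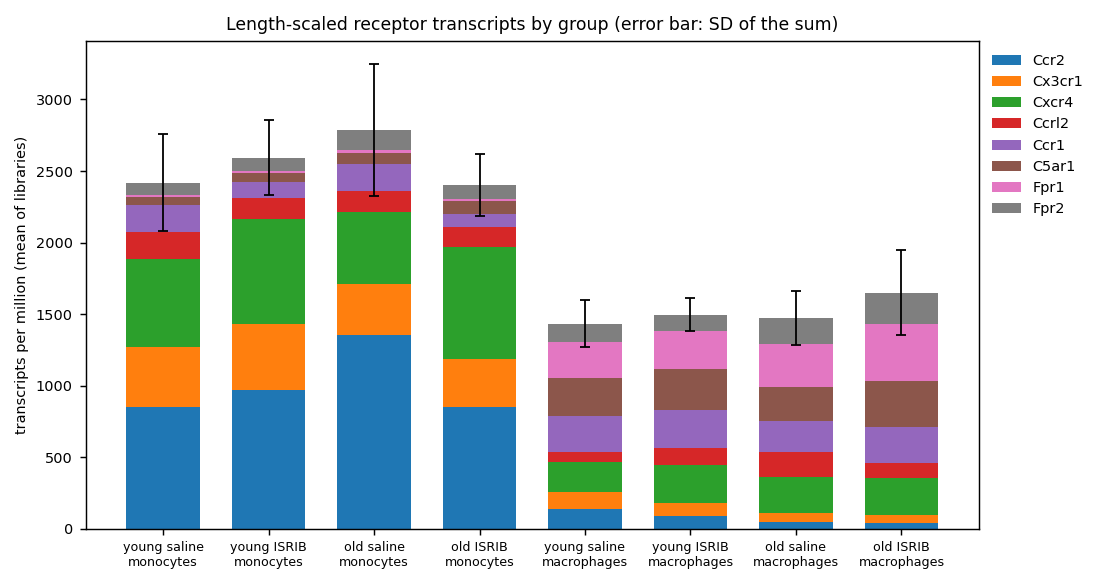
Mean TPM of the 8 receptors in each group, stacked (vertical axis, from 0), with the SD of the sum as the error bar. Ccr2, Cx3cr1 and Cxcr4 make up most of the monocyte bars, while Fpr1, C5ar1, Ccr1 and Cxcr4 make up most of the macrophage bars, and the macrophage sums range from 1433 TPM to 1649 TPM.

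The comparison of saline macrophages with saline monocytes, averaged over both ages, asked how the receptors differ between macrophages of the injured lung and the lung monocytes labelled naive. Of the 8 receptors 3 were called higher and 3 lower in macrophages at an adjusted p under 0.05 (edgeR quasi-likelihood test, Benjamini-Hochberg over all genes tested). Over all genes 9511 of 13587 were called, 70.0% (35.8% higher and 34.2% lower), so 6 of 8 is near that share. Fpr1 was 24.3-fold higher, with a log2 difference of 4.60 ± 0.23 (SE; adjusted p = 1.22e-20). C5ar1 was 4.25-fold higher (2.09 ± 0.20) and Fpr2 was 1.65-fold higher (0.72 ± 0.18). Ccr2 was 10.7-fold lower (-3.42 ± 0.21), Cx3cr1 3.78-fold lower (-1.92 ± 0.17) and Cxcr4 2.05-fold lower (-1.04 ± 0.16). Ccr1 differed by 0.61 ± 0.38 (95% interval -0.14 to 1.36, adjusted p = 0.151) and Ccrl2 by -0.27 ± 0.20 (95% interval -0.67 to 0.13, adjusted p = 0.236), and neither passed the test.

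**Figure D2:**
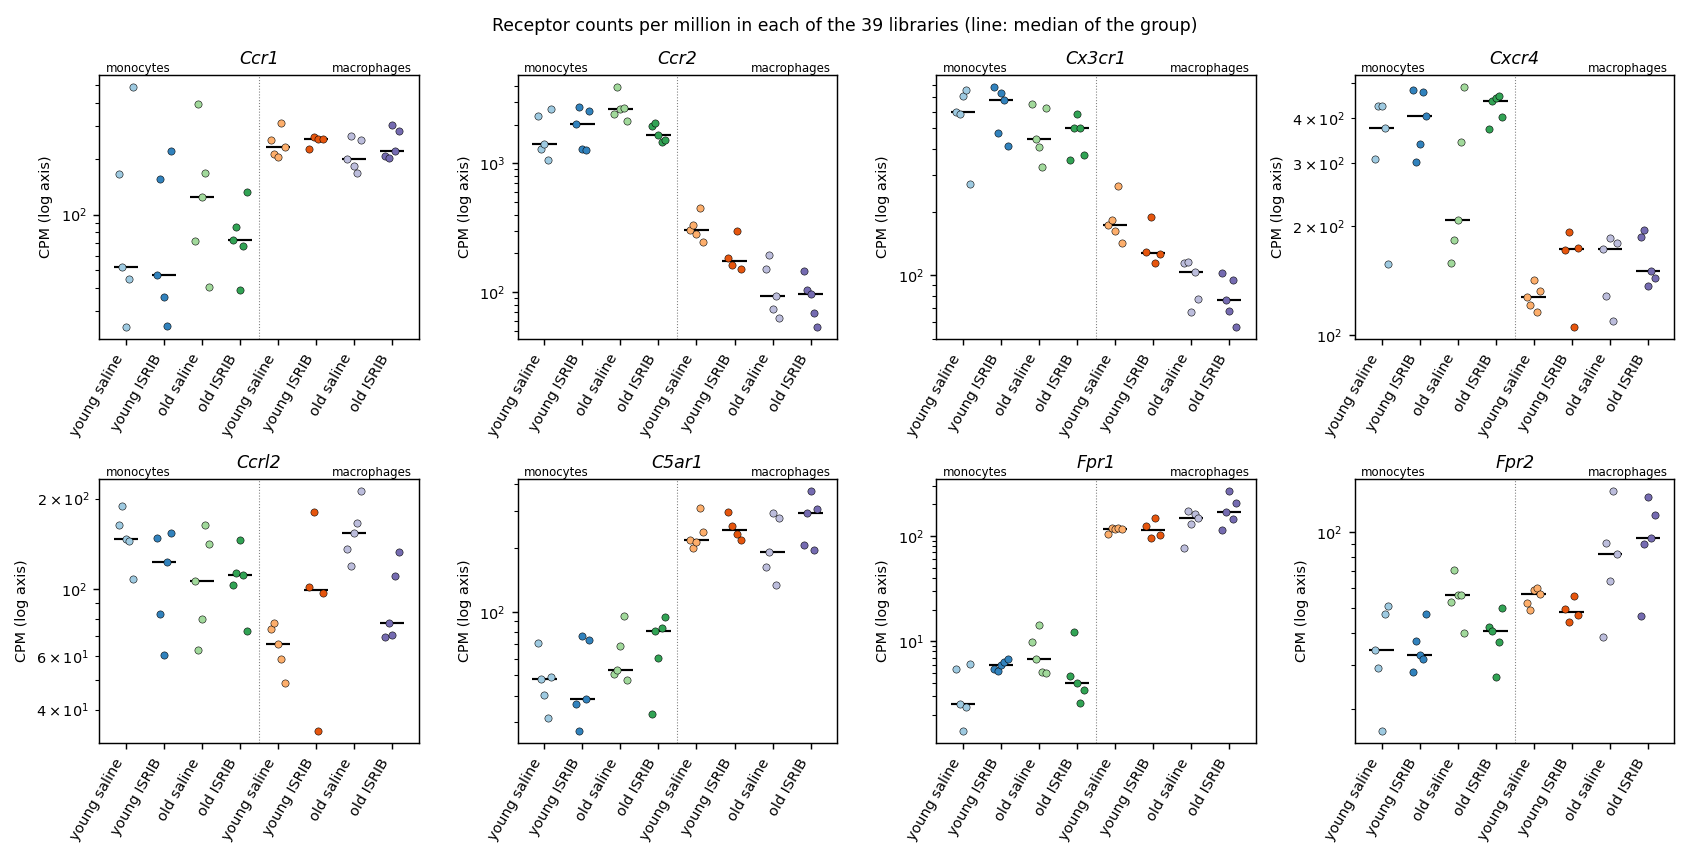
CPM (log axis) of each receptor in each library, with the group median as a line; monocyte groups stand left and macrophage groups right of the dotted line. The monocyte and macrophage points of Ccr2 are separate, those of Ccrl2 overlap, and Ccr1 in young saline monocytes spans 24.7 to 491 CPM.

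The age comparison in macrophages asked how receptor expression of the recruited cells differs between young and old mice under each treatment. In saline mice Ccr2 and Cx3cr1 fell and Ccrl2 rose with age, while the other 5 receptors did not pass the test. These 3 of 8 calls stood against 141 of 12171 genes called in either direction, 1.16% (0.937% higher and 0.222% lower). All 3 also had old and young libraries that did not overlap in CPM, as had 3.15% of all genes.

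Ccr2 (ENSMUSG00000049103; GRCm38, chr9:124101950-124113557, plus strand) read 306, 333, 283, 453 and 246 CPM in the young saline macrophages. It read 152, 195, 73.4, 93.3 and 62.7 CPM in the old saline macrophages. Every old library lay below every young one, and the log2 change was -1.45 ± 0.27 (SE; adjusted p = 0.00841), or 2.72-fold lower. In ISRIB mice Ccr2 read 185, 163, 299 and 151 CPM in young and 146, 103, 96.1, 68.6 and 53.4 CPM in old macrophages. Those groups also did not overlap, as held for 4.91% of all genes, but the log2 change of -1.10 ± 0.28 missed the threshold (adjusted p = 0.0563). It passed in 4 of 19 omissions of a library (adjusted p from 0.0193 to 0.0345), and the largest adjusted p among the omissions was 0.193. Averaged over both treatments Ccr2 fell by 1.27 ± 0.19 on the log2 scale (adjusted p = 2.32e-04). The saline call held when any 1 of the 19 libraries was left out, with adjusted p of at most 0.0368. Of the 50-base words of Ccr2 transcripts 1.91% also occur in transcripts of other genes.

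Cx3cr1 (ENSMUSG00000052336; GRCm38, chr9:119901616-120069879, minus strand) read 173, 183, 162, 266 and 143 CPM in young saline macrophages. In old saline macrophages it read 114, 115, 67.1, 104 and 76.8 CPM, all below the young range. The log2 change was -0.91 ± 0.19 (adjusted p = 0.0145), or 1.88-fold lower. In ISRIB mice the young libraries read 129, 189, 114 and 126 CPM and the old ones 103, 76.3, 67.4, 94.8 and 56.7 CPM, again without overlap, for a log2 change of -0.82 ± 0.20 (adjusted p = 0.0401). Cx3cr1 was the 1 receptor called among ISRIB macrophages, where 114 of 12171 genes, 0.937%, were called (0.493% lower). Averaged over both treatments Cx3cr1 fell by 0.87 ± 0.14 on the log2 scale (adjusted p = 3.46e-04). The saline call was lost without young saline replicate 4 (adjusted p = 0.0675), without old saline replicate 5 (0.0571) and in a fit of all 39 libraries (0.0689). The ISRIB call was lost in 8 of 19 such omissions, with an adjusted p of up to 0.170, which came without young ISRIB replicate 2. Cx3cr1 shares 1.73% of its exon bases with the antisense gene Gm33858, whose reads cannot be told apart if strand was not used in counting.

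Ccrl2 (ENSMUSG00000043953; GRCm38, chr9:111054486-111057519, minus strand) moved the other way in saline mice. Young saline macrophages read 73.8, 77.3, 66.1, 58.9 and 49.1 CPM and old saline macrophages 136, 119, 154, 165 and 212 CPM. The lowest old library stood above the highest young one, and the log2 change was 1.32 ± 0.28 (adjusted p = 0.0155), or 2.50-fold higher. That call was lost without young saline replicate 4 (adjusted p = 0.0566) or old saline replicate 5 (0.0577). In ISRIB mice the young libraries read 102, 181, 33.9 and 97.1 CPM and the old ones 69.8, 77.7, 70.5, 111 and 133 CPM. These ranges overlapped, young ISRIB replicate 3 stood lowest of all 19 libraries, and the log2 change was -0.18 ± 0.29 (95% interval -0.75 to 0.38, adjusted p = 0.873). Averaged over both treatments the change of Ccrl2 was 0.57 ± 0.20 (adjusted p = 0.103).

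Ccrl2 and Fpr2, the receptors that rose with age in macrophages (Ccrl2 in saline mice, Fpr2 on average over treatments), are shown with the sequence before their transcription start. Both come from the RefSeq annotation of GRCm38.p6 and are written 5′ to 3′ on the strand of the gene, with matches on either strand to an NF-kB form (GGGA, any 4 bases, CC) in capitals. The Ccrl2 sequence is the 249 bases at chr9:111057520-111057768, minus strand, before the most upstream of 3 annotated starts. The Fpr2 sequence is the 250 bases at chr17:17887574-17887823, plus strand.
Ccrl2: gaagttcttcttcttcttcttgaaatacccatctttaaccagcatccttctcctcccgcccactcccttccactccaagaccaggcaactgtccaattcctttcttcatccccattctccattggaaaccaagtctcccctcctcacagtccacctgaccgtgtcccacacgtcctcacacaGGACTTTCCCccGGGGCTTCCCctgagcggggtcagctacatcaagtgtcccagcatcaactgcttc
Fpr2: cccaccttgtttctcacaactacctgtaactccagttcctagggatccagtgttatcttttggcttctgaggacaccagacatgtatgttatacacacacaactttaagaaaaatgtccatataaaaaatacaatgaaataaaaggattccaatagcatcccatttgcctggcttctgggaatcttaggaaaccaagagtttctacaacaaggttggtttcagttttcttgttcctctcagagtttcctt
The Ccrl2 window held 2 NF-kB matches that do not overlap, GGACTTTCCC and GGGGCTTCCC, both in the reverse orientation and starting 68 and 56 bases before the start. The Fpr2 window held none. Among all 8 receptors the NF-kB form occurred in 1 of the 3 windows of Ccrl2 and in the window of Ccr1. Over all genes it occurred in 17.6% of 32851 windows of the same length. None of the 8 held the AP-1 form TGANTCA (6.75% of windows), the PU.1 form GAGGAAGT (2.44%), the C/EBP form TTGCNNAA (9.56%) or the C/EBP-ATF form TGATGNAA (3.45%). Some windows overlap GENCODE exons: by 250 of 250 bases for Cx3cr1, 233 for Ccr2 and 28 for C5ar1. For starts 2 and 3 of Ccrl2 the overlap is 139 and 140 bases. A missing match in these windows thus describes largely or partly transcribed sequence. A match describes letters and not a bound site.

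The formyl peptide receptors lie 3883 bases apart on chromosome 17, Fpr1 (ENSMUSG00000045551) at 17876471 to 17883940 on the minus strand and Fpr2 (ENSMUSG00000052270) at 17887824 to 17893952 on the plus strand. Fpr2 read 52.4, 49.1, 59.0, 60.1 and 57.1 CPM in young saline macrophages and 38.6, 90.9, 64.3, 145 and 82.1 CPM in old saline macrophages. In ISRIB mice it read 49.8, 44.2, 56.1 and 47.1 CPM in young and 46.5, 90.1, 137, 94.4 and 117 CPM in old macrophages. The young libraries kept to a narrow band, and under each treatment 4 of 5 old libraries lay above it, with old replicate 1 within or below it. The log2 change was 0.65 ± 0.25 in saline (adjusted p = 0.231) and 0.97 ± 0.27 in ISRIB mice (adjusted p = 0.0772), and neither passed the test. Averaged over both treatments Fpr2 rose by 0.81 ± 0.18 (adjusted p = 0.00834), and limma voom put that value at 0.67 with an adjusted p of 0.0509. That average called 3 of the 8 receptors, with Ccr2 and Cx3cr1 lower and Fpr2 higher, against 592 of 12171 genes, 4.86% (3.12% higher and 1.74% lower).

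Fpr1 read 105, 119, 116, 119 and 117 CPM in young saline and 76.6, 171, 130, 161 and 149 CPM in old saline macrophages. In ISRIB mice it read 124, 95.3, 149 and 103 CPM in young and 113, 169, 268, 145 and 205 CPM in old macrophages. Old replicate 1 was again the lowest old library under each treatment. The changes were 0.29 ± 0.18 in saline (adjusted p = 0.548), 0.61 ± 0.20 in ISRIB mice (adjusted p = 0.147) and 0.45 ± 0.13 on average (adjusted p = 0.0505). The average passed the threshold in 4 of 19 omissions of a library, with the lowest adjusted p, 0.00752, without old saline replicate 1. Of the 50-base words of Fpr2 transcripts 31.5% also occur in transcripts of Fpr1, Fpr3 or Gm5966, so reads from those stretches cannot be assigned with certainty. For Fpr1 that share was 0.078%.

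C5ar1, Ccr1 and Cxcr4 showed no call with age in macrophages. C5ar1 (ENSMUSG00000049130; chr7:16246743-16259540, minus strand) had a change of -0.12 ± 0.18 in saline mice (95% interval -0.46 to 0.22), where young libraries read 200 to 310 CPM and old ones 134 to 295 CPM. Its average change was 0.00 with a 95% interval of -0.25 to 0.25. Ccr1 (ENSMUSG00000025804; chr9:123962124-123968692, minus strand) varied little, from 167 CPM to 313 CPM over all 19 macrophage libraries, with an average change of -0.10 (95% interval -0.29 to 0.09). Ccr1 lies 133257 bases from Ccr2, and so these neighbours differed in that Ccr2 passed the age test and Ccr1 did not, a difference that was not itself tested. Cxcr4 (ENSMUSG00000045382; chr1:128588199-128592293, minus strand) read 127, 121, 142, 116 and 133 CPM in young saline and 173, 129, 186, 109 and 180 CPM in old saline macrophages. The ranges overlapped and the change of 0.32 ± 0.15 did not pass (adjusted p = 0.359).

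**Figure D3:**
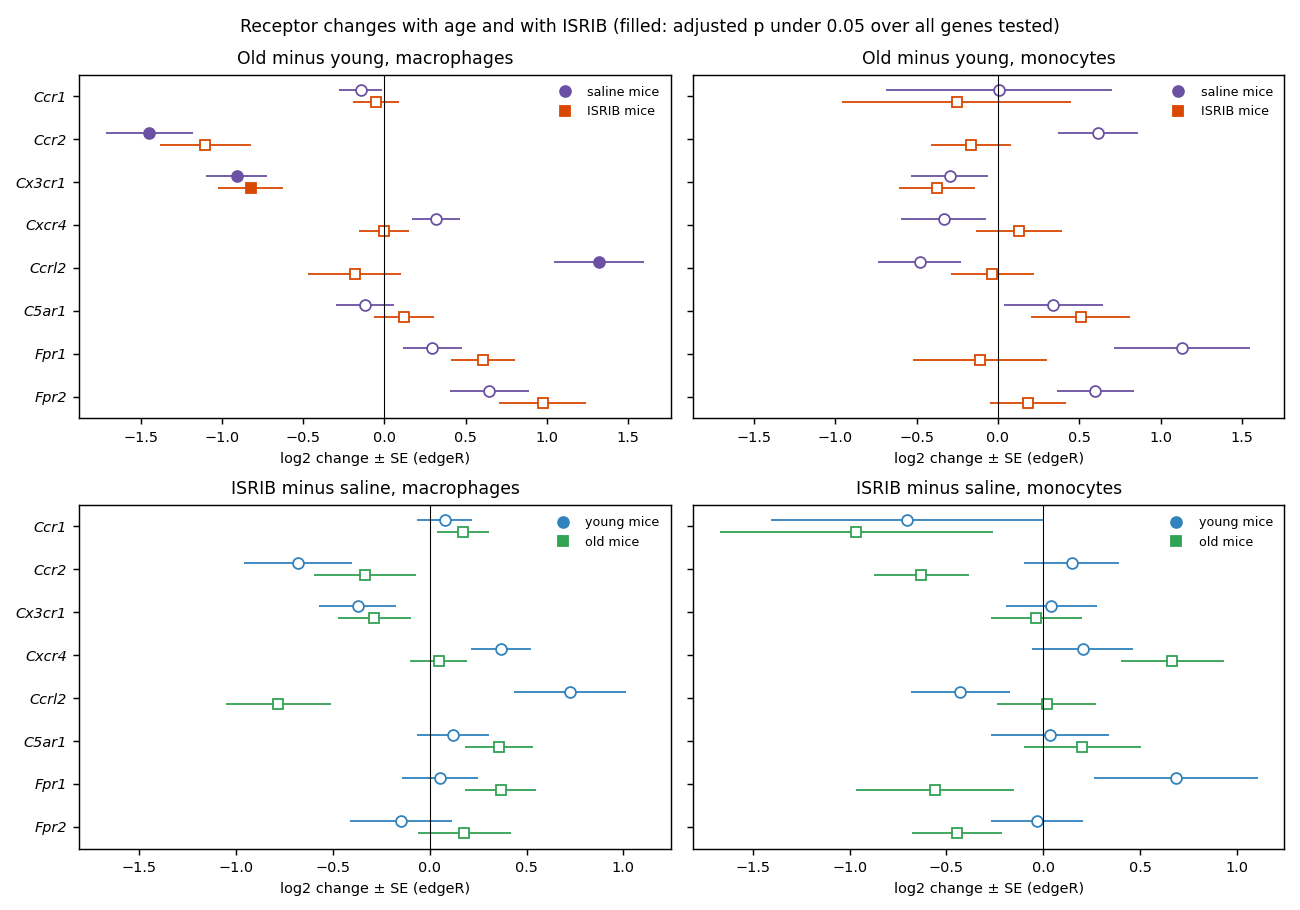
Log2 change with its SE (horizontal axis) of each receptor, old minus young above and ISRIB minus saline below, in macrophages and monocytes; filled symbols have an adjusted p under 0.05 over all genes tested. The filled symbols are Ccr2, Cx3cr1 and Ccrl2 for age in saline macrophages and Cx3cr1 for age in ISRIB macrophages, and no ISRIB change is filled.

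The ISRIB comparison in macrophages asked whether treatment moved the receptors within an age. No receptor was called in young or in old macrophages by edgeR's quasi-likelihood test, and neither was any of the 12171 genes (0%), although 1513 genes in young and 1112 in old macrophages had an unadjusted p under 0.05. DESeq2 also called none of the 8 receptors there, and called 119 genes in young and 49 in old macrophages. Ccrl2 was the receptor with the smallest unadjusted p at both ages, in opposite directions. Its log2 change with ISRIB was 0.72 ± 0.29 in young (adjusted p = 0.294) and -0.78 ± 0.27 in old macrophages (adjusted p = 0.394). Of the old libraries given ISRIB 4 of 5 lay below the lowest old saline library, 119 CPM, and 3 of 4 young libraries given ISRIB lay above the highest young saline library, 77.3 CPM. The difference of the ISRIB effects between ages was -1.50 ± 0.40 with an adjusted p of 0.765, and no gene of 12171 (0%) passed that test, although 621 had an unadjusted p under 0.05. Without young ISRIB replicate 3 that difference was -1.80 (adjusted p = 0.0394), and the young ISRIB changes of Ccrl2, 1.02 (adjusted p = 0.0222), and of Cxcr4, 0.53 (adjusted p = 0.0367), passed as well. Without young ISRIB replicate 2, the highest of its group for Ccrl2, the difference was -1.07 (adjusted p = 0.999) and the young ISRIB change of Ccrl2 was 0.29 (adjusted p = 0.773). The age change in saline mice and the ISRIB change in old mice share the old saline libraries, so their opposite signs for Ccrl2 are not separate observations.

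Averaged over both ages, ISRIB left all 8 receptors below the threshold, beside 101 of 12171 genes called, 0.830%. Ccr2 had the change with the smallest unadjusted p, -0.51 ± 0.19 (95% interval -0.88 to -0.13, adjusted p = 0.169), and Cx3cr1 changed by -0.33 ± 0.14 (adjusted p = 0.214). In young macrophages 3 of 4 Ccr2 libraries given ISRIB lay below the lowest saline library, 246 CPM, and the change of -0.68 ± 0.28 did not pass (adjusted p = 0.308). Fpr2 changed by 0.02 ± 0.18, an interval of -0.34 to 0.37. The other 5 receptors changed by between -0.03 and 0.24 on average.

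In monocytes no receptor was called with age or with ISRIB, in any of the 7 comparisons and under any alternative processing tried. The monocytes gave few calls overall: 3 of 12170 genes with age in saline mice, 0.0247%, 15 with age averaged over treatments, 0.123%, and 0 in the other 5 comparisons (0%), in which 803 to 918 genes had an unadjusted p under 0.05. DESeq2 called 41 genes with age in saline monocytes and 0 to 14 in those 5 comparisons. Ccr2 read 2351, 1288, 1417, 1057 and 2629 CPM in young saline and 2409, 3958, 2641, 2678 and 2126 CPM in old saline monocytes. Its log2 change of 0.61 ± 0.25 (adjusted p = 0.441) pointed the other way from macrophages. In old ISRIB monocytes Ccr2 read 1970.4, 2070.2, 1652, 1476 and 1516 CPM, every value below the old saline range, a separation that 1.43% of genes showed, but the change of -0.63 ± 0.25 did not pass (adjusted p = 0.562). Cxcr4 was lower in 4 of 5 old saline monocyte libraries, at 159, 184, 209 and 342 CPM, than in any old ISRIB library (372 to 460 CPM), and the change with ISRIB of 0.67 ± 0.26 did not pass (adjusted p = 0.562). Fpr1, at 1.39 to 14.4 CPM in monocytes, had an age change of 1.13 ± 0.42 in saline mice (adjusted p = 0.410), and Fpr2 one of 0.60 ± 0.24 (adjusted p = 0.429). C5ar1 read 27.1 to 95.8 CPM and Ccrl2 60.6 to 188 CPM over the 20 monocyte libraries, with no change past the test.

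Ccr1 varied more between monocyte libraries of a group than any other well-detected receptor. In young saline monocytes it read 165, 51.8, 24.7, 44.8 and 491 CPM, a 19.9-fold range, and in old saline monocytes 72.3, 395, 124, 168 and 40.9 CPM. The ranges overlapped, and the age change of 0.01 had an SE of 0.69. The summed level of 7 classical monocyte markers, among them Ly6c2 and Vcan, went with it: across the 20 libraries Ccr1 had r = 0.87 and Spearman rho = 0.85 with that sum, and r = 0.92 for deviations from the group means. Ccr1 had r = 0.87 with a sum of 8 neutrophil markers (101 to 407 CPM), r = 0.80 with Ccr2 and r = -0.76 with Cx3cr1. The classical marker sum also had r = 0.81 with Ccr2, and 0.90 within groups. A sum of 7 nonclassical monocyte markers had r = -0.80 with Ccr1, -0.69 with Ccr2 and 0.68 with Cx3cr1. Those correlations describe libraries that share a sort and a depth scale. The classical marker sum spanned 4301 to 9682 CPM over monocyte libraries, with 5296 to 8100 CPM in old saline and 4452 to 5795 CPM in old ISRIB mice. The part of these marker sums in the receptor values was not tested.

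The age change itself differed between cell types for 2 receptors in saline mice. For Ccr2 the macrophage age change minus the monocyte age change was -2.04 ± 0.40 (adjusted p = 0.0152), and it kept its call in all 39 omissions of a library (adjusted p of at most 0.0466). For Ccrl2 the difference was 1.82 ± 0.41 (adjusted p = 0.0368), and it lost its call in 13 of 39 omissions (adjusted p of at most 0.107). Over all genes 34 of 13587 were called, 0.250% (0.147% higher and 0.103% lower). Cx3cr1 differed by -0.59 ± 0.32 and did not pass (adjusted p = 0.513), so its age change was not shown to differ between macrophages and monocytes.

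Across the 19 macrophage libraries some receptors varied together and others in opposite directions, described here by Pearson's r of log2 CPM and, for the part not set by group, by r of deviations from the group means. Fpr1 and Fpr2 had r = 0.90 (rho = 0.90) and 0.88 within groups. Ccr2 and Cx3cr1 had r = 0.86 (rho = 0.85) and 0.55 within groups. Ccr2 and Ccrl2 had r = -0.64 (rho = -0.59) and -0.60 within groups. Cx3cr1 and Fpr1 had r = -0.65 and -0.43 within groups, Ccr2 and Fpr2 -0.61 and -0.31, and Cxcr4 and Ccrl2 0.55 and 0.53. Cxcr4 and Fpr1 had r = -0.27 overall and -0.67 within groups. In monocytes Ccr2 and Cx3cr1 ran in opposite directions instead, at r = -0.57 (rho = -0.58) over 20 libraries.

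The genes of most similar pattern over the 19 macrophage libraries, out of all tested genes, differed by receptor. Ccrl2 was most like Cxcl2, a neutrophil chemokine (r = 0.95, and 0.90 within groups), Nfkbiz, an inducible regulator of NF-kB targets (0.89), and Atf3, a stress-induced transcription factor (0.89). Cxcl2 read 37.7 to 75.6 CPM in young saline and 104 to 262 CPM in old saline macrophages, like Ccrl2 without overlap, as had 3.15% of all genes. In ISRIB mice its ranges overlapped, at 28.9 to 189 CPM in young and 52.3 to 130 CPM in old macrophages. Cxcl2 was picked for its likeness to Ccrl2 in these libraries, so the shared separation is not a separate observation. The RefSeq windows of Cxcl2 and Atf3 each held the NF-kB form, that of Atf3 also held the C/EBP-ATF form, and no window of Nfkbiz was listed. Over all genes 17.6% of windows held the NF-kB form and 3.45% the C/EBP-ATF form, and a shared regulator was not tested. Cx3cr1 was most like Fn1, which encodes fibronectin (0.92), Itga6, an integrin subunit (0.91), and Rgs10, a regulator of G protein signalling (0.91). Ccr2 was most like Pmepa1, a target of TGF-beta signalling (0.92), Pld4 (0.91) and Il1rl2, an interleukin 36 receptor chain (0.90). Fpr1 was followed by Fpr2, Ch25h, an oxysterol-forming enzyme (0.87), and Gsr, glutathione reductase (0.85), and Fpr2 by Fpr1, Ppp1r12b (0.84) and Smpdl3b (0.83). Cxcr4 was most like Mamdc2 (0.89), Zfand2a (0.86) and Rhob (0.85), C5ar1 like Gm340 (0.89), Fam129a (0.85) and Nrip1 (0.85), and Ccr1 like Ppig (0.80), Pitpnc1 (0.78) and Gda (0.77).

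**Figure D4:**
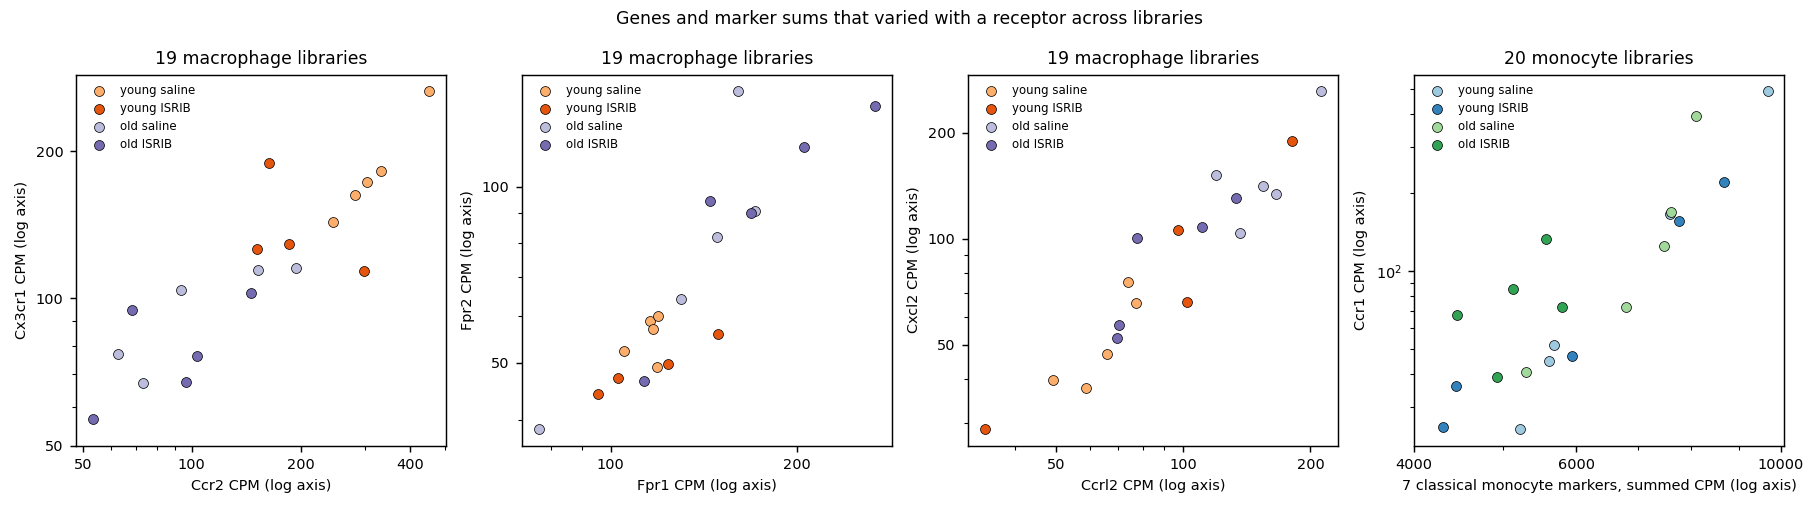
CPM of paired genes on log axes, one point per library: Ccr2 with Cx3cr1, Fpr1 with Fpr2 and Ccrl2 with Cxcl2 in 19 macrophage libraries, and Ccr1 with the sum of 7 classical monocyte markers in 20 monocyte libraries. In the first 3 panels the points run from low to high together (r of 0.86, 0.90 and 0.95), and Ccr1 climbs with the marker sum (r of 0.87).

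Other genes of the pathway were read from 5 lists. Of 19 other chemokine receptors 7 were tested in macrophages, and with age averaged over treatments 3 rose and 1 fell, with Cxcr1 and Cxcr5 among those that rose, where 3.12% of all genes were called higher and 1.74% lower. Cxcr1, a receptor of neutrophil chemokines, rose by 2.72 ± 0.51 on the log2 scale and reached at most 23.4 CPM. Cxcr5, the Cxcl13 receptor of B cells, rose by 3.14 ± 0.74 and reached at most 5.57 CPM in macrophages. The median change of those 7 genes was 1.75, against 0.00 over all 12171 genes. A receptor low in young macrophages could pass the filter on low counts through the old libraries alone. That favours both a positive median and calls of a rise. So 1.75 does not describe a rise of all 19 receptors, and the 3 rises do not stand evenly against 3.12%. Of 18 other chemoattractant receptors 9 were tested, and Cysltr1, a leukotriene receptor, fell by 0.68 ± 0.16 (adjusted p = 0.0150), with a list median of -0.18. In saline mice alone Cxcr1 rose as well (2.95 ± 0.73).

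Among 27 signalling genes, all tested, Plcb2, a phospholipase activated by G protein subunits, was the 1 call with age on average (0.40 ± 0.08), a share no larger than the 4.86% of all genes called there, and in saline mice Pik3r5, a subunit of PI3K gamma, rose by 0.39 ± 0.09. Their list median was 0.01. Among 13 tested genes of 14 for receptor desensitisation Rgs10 fell by 0.41 ± 0.09 with age, and Grk5, a receptor kinase, rose by 0.44 ± 0.09 with ISRIB averaged over ages. The list medians were 0.06 and 0.04.

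Of 16 ligand genes of the 8 receptors 13 were tested in macrophages, and 3 rose with age on average: Ccl6 (0.66 ± 0.10), Ccl3 (0.91 ± 0.19) and Ccl5 (2.15 ± 0.43), which are ligands of Ccr1, where 3.12% of all genes were called higher. Ccl6 was at 2678 to 2920 CPM in young saline and 3410.1 to 5416 CPM in old saline macrophages, and also rose with ISRIB averaged over ages (0.43 ± 0.10). The list median with age was 0.50. In saline mice Ccl3 rose by 1.27 ± 0.27 in macrophages and differed from its monocyte change by 2.11 ± 0.37 (adjusted p = 0.00740). In monocytes 9 ligand genes were tested, and with age on average Ccl3 fell by 0.91 ± 0.15 and Ccl5 rose by 2.74 ± 0.39, where 0.123% of all genes were called. Chosen after their values were seen, Cxcl12, the ligand of Cxcr4, was at 0 to 4.64 CPM and Rarres2, which encodes chemerin, at 0 to 0.777 CPM over all libraries. Between the cell types most list members differed, as most genes did: in macrophages C3ar1 was higher by 5.12, Gna15 by 2.53 and Ccl8 by 9.14 on the log2 scale, and Ltb4r1 was lower (-5.42) as were Grk2 (-1.38) and Grk6 (-2.06).

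Markers of other cells moved with age in the macrophage libraries beside these receptors. Of all genes tested there, 3.12% were called higher and 1.74% lower with age averaged over treatments. A marker low in young macrophages, such as Cd79a at no more than 1.25 CPM, could pass the filter through the old libraries alone. That favours calls of a rise, so counts of risen B cell, plasma cell, T and NK cell markers do not stand evenly against 3.12%. With age on average 7 of 9 B cell and plasma cell markers rose, among them Cd79a, Ms4a1, Ighm and Jchain, and their sum was 6.72 to 29.3 CPM in young saline, 11.2 to 24.6 CPM in young ISRIB, 21.9 to 415 CPM in old saline and 151 to 597 CPM in old ISRIB macrophages. Of 10 mature alveolar macrophage markers 7 rose on that average, among them Siglecf and Marco, against 2 in saline mice alone and 3 in ISRIB mice alone. The sum of all 10 was 5609.8 to 8139.7 CPM in young saline and 5723 to 10173 CPM in old saline macrophages. In ISRIB mice it was 5990.5 to 9233 CPM in young and 7930 to 15336 CPM in old macrophages. Of 7 interstitial macrophage markers C1qa, C1qb and C1qc fell on that average, and none was called in saline or ISRIB mice alone. The sum of all 7 was 2597 to 3529 CPM in young saline and 1783 to 3193 CPM in old saline macrophages. In ISRIB mice it was 2018 to 2889 CPM in young and 1286 to 2259 CPM in old macrophages. Over the 19 libraries that last sum had r = 0.80 with Ccr2 and 0.87 with Cx3cr1, and 0.58 and 0.74 within groups. The B cell and plasma cell sum had r = -0.81 with Ccr2 and -0.84 with Cx3cr1, and -0.34 and -0.43 within groups. The mature alveolar sum had r = 0.76 with Fpr1, -0.74 with Cx3cr1 and 0.69 with C5ar1, and 0.61, -0.53 and 0.79 within groups. Of 7 tested T and NK cell markers 3 rose (Lck, Cd3g and Cd8a), while the defining markers Cd3e and Cd3d were at most 4.0 and 3.37 CPM in macrophages. The sum of all 10 listed markers, 57.2 to 131 CPM in macrophages, had r = 0.78 with Cxcr4. Of the 9 tested between saline macrophages and saline monocytes, Il7r was the 1 called higher in macrophages, and 7 were called lower. Between those cells 35.8% of all genes were called higher and 34.2% lower. Of 7 classical monocyte markers 2 rose, Plac8 among them, and Vcan fell, with Ly6c2 at most 7.01 CPM in macrophages, of 7 nonclassical ones Treml4 rose and Ace fell, and of 5 dendritic cell markers Clec9a rose. No tested neutrophil, epithelium, endothelium or fibroblast marker was called with age in macrophages. Those tested were 4 of 8 neutrophil, 5 of 6 epithelium, 3 of 4 endothelium and 3 of 5 fibroblast markers. No eosinophil marker passed the filter, so none could be called. The defining markers Epx and Prg2 of eosinophils were at most 0.50 CPM in macrophages. Of the defining neutrophil markers S100a9 was at most 4.80 CPM and S100a8 was at 16.3 to 41.4 CPM in macrophages. Against saline monocytes, S100a8 and Retnlg were called higher in saline macrophages. In that comparison 4 of 7 tested neutrophil markers were called lower in macrophages, S100a9 among them, beside 34.2% of all genes. The part of these markers in the receptor results was not tested.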

How the data were processed

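The count table deposited by the authors holds raw counts per Ensembl gene for all 39 libraries. Per the submitters' processing notes it was made with bcl2fastq 2.19.1, Trimmomatic 0.36, STAR 2.6.0 and HTSeq 0.11.2 on mm10; how strands and ambiguous reads were handled, and with which annotation, is not given in the sources used here. Per the labels, libraries came from 3 ng of total RNA with poly(A) selection. Symbols and exon lengths came from GENCODE vM21 (42462 of 43430 IDs, at least 99.8% of each library's counts).

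CPM are counts over the library total. TPM were computed from those counts and union exon lengths. Genes were kept by filterByExpr (minimum count 10) and tested with edgeR 4.0.16 (R 4.3.3; TMM, glmQLFit and glmQLFTest, Benjamini-Hochberg), with macrophages and monocytes fitted apart and all 39 libraries together for contrasts between cell types, 16 contrasts in all. The 95% intervals are the estimate ± 1.96 SE. Correlations, without a test, used log2 CPM (TMM, prior count 2). Alternatives were DESeq2 1.42.0, limma 3.58.1 voom, RLE size factors, no filter, a replicate block, 1 fit of all libraries and omission of each library.

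The members and all gene lists were chosen with earlier results of these data known. The 8 receptors were always named. Of each pathway list up to 3 called genes with the smallest adjusted p were named, and of similar genes the 3 with the highest r. The edgeR script was tested on simulated data. Reads were not reprocessed. Some genes of the lists are not reported here.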

Additional observations from a re-analysis of the deposited data

Results flagged for a closer look

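Of 64 sets of 1 receptor in 1 group, 2 had a library far from the others, and chance gives about 1 in 20. In old ISRIB monocytes replicate 2 had the highest Fpr1, 12.2 CPM, with the next library at 4.71 CPM. In young saline macrophages replicate 1 had the lowest Fpr1, 105 CPM, with the next at 116 CPM and the whole group within a 1.14-fold range.

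The age change in saline mice differed between macrophages and monocytes by a test of the difference itself for Ccr2 (-2.04 ± 0.40 on the log2 scale) and for Ccrl2 (1.82 ± 0.41). Ccr2 read lower in old macrophages and higher, without passing the test, in old monocytes, and Ccrl2 read higher in old macrophages and lower, without passing the test, in old monocytes (-0.48 ± 0.26, adjusted p = 0.619). The monocytes are labelled naive, while the design text describes them with the macrophages after bleomycin; if the label holds, cell type and injury cannot be told apart.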

How the results depend on the processing

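The 39 receptor changes recomputed under the alternatives were those with an unadjusted p under 0.05 by edgeR's quasi-likelihood test, and none reversed. Changes chosen that way seldom reverse, so this says nothing of the other receptor changes. Receptors called with age in ISRIB macrophages numbered 1 in the main result, 0 with limma voom, 0 in the fit of all 39 libraries and 4 with no filter on low counts. With no filter the count with age on average in macrophages went from 3 to 5, and the counts with ISRIB went from 0 to 2 in young macrophages, 1 in old, 2 on average and 1 for the ISRIB effect by age. Over all genes the count with ISRIB in young macrophages went from 0 to 224 with no filter. The cause was not tested. Leaving out 1 library at a time gave 1 to 3 receptors called with age in saline macrophages, 0 to 3 with age in ISRIB macrophages, 0 to 2 with ISRIB in young macrophages, 0 to 1 for ISRIB by age in macrophages and 1 to 2 for age by cell type. Same-numbered libraries of different groups were compared within a cell type, by r of deviations from the group means. Their r spanned -0.148 to 0.165 over 27 macrophage pairs and -0.191 to 0.242 over 30 monocyte pairs. For different numbers r spanned -0.224 to 0.224 over 108 macrophage pairs and -0.258 to 0.240 over 120 monocyte pairs. These ranges show no pairing by number within a cell type. Macrophage libraries were not compared with monocyte libraries, and a shared animal or batch was not tested. With a replicate block 2 receptors were called with age in ISRIB macrophages, where Ccr2 passed at an adjusted p of 0.0460, and 1 with ISRIB on average, Cx3cr1 at 0.0422. Between cell types 7 of 8 were called with the block, and 7 with limma voom, against 6 in the main result. That result called 70.0% of all genes between cell types, so these counts do not set the receptors apart. In the other comparisons the number of receptors called did not change with the block. Counts over all genes moved more: with age in saline macrophages from 141 to 264 with DESeq2, 468 with no filter and 60 in the fit of all libraries, and over omissions from 47 to 289; in ISRIB macrophages from 114 to 219, 405 and 50, and over omissions from 33 to 161. The count with age on average went from 592 to 975 with no filter and 340 in the fit of all libraries. The count with ISRIB on average in macrophages went from 101 to between 17 and 640, and over omissions to between 13 and 649. Those with age by cell type went from 34 to between 22 and 150, and with age in saline monocytes from 3 to between 1 and 41. Fpr1 in monocytes rests on 11 to 147 counts per library, which limits its precision.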
